A study of Rattus norvegicus with 14 samples.

Results

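The mitochondrial solute carriers of the SLC25 family were followed in rat thyroid cells that did or did not express the PAX8-PPARG fusion protein. The members were all gene symbols of the deposited count table that consist of Slc25a and a number, apart from 2 that the rule leaves out. This gave 37 members among 16816 symbols, of which 32 had enough reads to be tested in at least 1 comparison and 31 in every comparison. The rule used names and no expression values.

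RNA was sequenced from PCCL3 cells, a differentiated rat thyroid follicular line, in 4 groups of 3 libraries. The study's methods name 3 independent experiments, but that a replicate number marks the same experiment in every group is not stated. PPFP cells had been stably transfected with a Myc-tagged human PAX8-PPARG fusion protein (PPFP), a product of a translocation in follicular thyroid carcinoma, and EV cells with the empty vector. Each cell line received DMSO vehicle or 1 μM pioglitazone, a thiazolidinedione agonist of PPARG, for 16 hours. Whether each stable line is a single clone or a pool is not given in the sources used here, and the expression of PPFP is that of a transfected vector.

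SLC25 proteins sit mostly in the inner mitochondrial membrane, where they exchange nucleotides, phosphate, carboxylic acids, amino acids, cofactors and metals between the cytosol and the matrix. The ADP/ATP and phosphate carriers supply ATP synthase, the carboxylate carriers link the citric acid cycle to lipid synthesis and gluconeogenesis, and the calcium-regulated carriers adjust the adenine nucleotide pool of the matrix. PPARG is best known as a regulator of adipocyte differentiation, in which mitochondrial and lipid genes are among its targets.

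Between 23724703 and 35240176 reads were counted on genes per library. Pparg, whose rat gene can take up reads of the human fusion transcript, had 1.23 to 2.81 CPM (counts scaled to the TMM-adjusted library size) in EV libraries and 46.7 to 61.2 CPM in PPFP libraries. All 8 thyroid markers examined were detected in every library, with Tg between 6647 and 12012 CPM, although mean Slc5a5 was 1129 CPM in EV cells, 336 CPM in untreated PPFP cells and 177 CPM in treated PPFP cells. Of 6 adipocyte markers, Lep and Retn were at 0 in every library, and the summed level of the list was 9.40 to 13.8 CPM in EV cells, 713 to 734 CPM in untreated PPFP cells and 955 to 982 CPM in treated PPFP cells, most of it from Cfd in PPFP cells. The 5 fibroblast markers summed to 20.4 to 34.5 CPM over the libraries, highest in treated PPFP cells and mostly from Pdgfra (19.0 to 32.1 CPM), while Col3a1 and Dcn were at 0. The 4 leukocyte markers summed to at most 1.45 CPM, mostly from Cd68, with Ptprc at 0.036 CPM or less, and the C cell gene Calca was at 0. The part of the adipocyte and fibroblast genes in the results below was not tested.

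Without pioglitazone, 8 SLC25 genes were higher and 6 were lower in PPFP than in EV cells, among them higher Slc25a3, the phosphate carrier, and lower Slc25a21, the oxodicarboxylate carrier. With pioglitazone 10 were higher and 4 lower, led by Slc25a34, a carrier with no settled substrate. Slc25a34 passed the filter on low counts only through treated PPFP cells, so its entry into the tests depended on the high level. The counts here include it. The members called between the lines without and with pioglitazone are 45.2% and 43.8% of those tested, against 45.2% and 52.7% of all genes tested. Scaling by library size alone gave 7 higher and 8 lower at either treatment. Pioglitazone itself raised 5 SLC25 genes and lowered 2 in PPFP cells, 21.9% of the members against 14.8% of all genes. With the replicate number as a block these became 11 and 7 (all genes called, 51.6%), and leaving out a library left 3 to 9 calls in all. No SLC25 gene was called for pioglitazone in EV cells, where 0 of all genes tested were called.

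These 3 promoters are printed because these genes were called in the test of whether the cell lines differed in their response to pioglitazone (Slc25a34, Slc25a25 and Slc25a21). They are RefSeq sequences of assembly GRCr8, 250 bases before to 50 after the annotated start, 5′ to 3′ on the strand of the gene, and capitals mark AGGTCA on either strand, the core element of nuclear receptor binding sites. Slc25a34 lies at chr5:159219843-159220142, Slc25a25 at chr3:36116532-36116831 and Slc25a21 at chr6:80437671-80437970, all on the minus strand.
Slc25a34: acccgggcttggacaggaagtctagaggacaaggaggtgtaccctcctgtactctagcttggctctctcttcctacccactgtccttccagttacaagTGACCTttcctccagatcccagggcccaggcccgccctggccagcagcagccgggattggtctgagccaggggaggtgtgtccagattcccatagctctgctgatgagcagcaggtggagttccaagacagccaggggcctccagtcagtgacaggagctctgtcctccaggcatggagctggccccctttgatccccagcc
Slc25a25: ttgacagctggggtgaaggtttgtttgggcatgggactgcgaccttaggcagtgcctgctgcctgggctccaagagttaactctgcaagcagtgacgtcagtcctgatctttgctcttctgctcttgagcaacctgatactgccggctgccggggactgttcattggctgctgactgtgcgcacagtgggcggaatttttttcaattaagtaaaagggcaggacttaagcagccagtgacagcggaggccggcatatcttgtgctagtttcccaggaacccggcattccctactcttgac
Slc25a21: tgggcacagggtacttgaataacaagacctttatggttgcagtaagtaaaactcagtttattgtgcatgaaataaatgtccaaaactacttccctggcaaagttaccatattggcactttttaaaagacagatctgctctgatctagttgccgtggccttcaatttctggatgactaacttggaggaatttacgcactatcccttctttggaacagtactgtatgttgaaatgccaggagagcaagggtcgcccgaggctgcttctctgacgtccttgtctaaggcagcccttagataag
In the Slc25a34 window the element reads TGACCT on the printed strand, so AGGTCA is on the opposite strand, and neither of the other windows holds it. RefSeq promoters were matched for 31 of the 37 members. AGGTCA, searched on both strands, was in 6 of them (19.4%; Slc25a16, Slc25a27, Slc25a34, Slc25a39, Slc25a41 and Slc25a47) and in 16.2% of all 33469 promoters. A direct repeat of AGGTCA with a spacer of a single base, the consensus of PPARG with its partner RXR, was in no member window and in 0.0538% of all promoters. GGGCGG, the core of the GC box, was in 21 member windows (67.7%) against 33.1% of all, and CCAAT was in 18 (58.1%) against 37.5%. The median GC content was 60.3% in the member windows and 51.7% in all promoters. These matches describe the letters of the windows only.

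The 37 members together took 0.338% ± 0.034 (SD, n = 3) of all counts in EV cells and 0.416% ± 0.019 in PPFP cells without pioglitazone. With pioglitazone the share was 0.334% ± 0.032 in EV cells and 0.410% ± 0.016 in PPFP cells. Every PPFP library was above every EV library of the same treatment, which gave p = 0.1 in a two-sided exact permutation test at either treatment, the smallest p that 3 against 3 libraries allow. With pioglitazone the share was lower in 3 of 3 pairs of PPFP libraries with the same replicate number, by -0.00995 to -0.00259 percentage points, and in 2 of 3 pairs of EV libraries. These shifts gave p = 0.25 in PPFP cells and 0.5 in EV cells in an exact permutation test within pairs, added after the data were seen, whose smallest p is 0.25, and p = 0.5 and 0.8 without the pairing. The 5 members with the highest mean CPM, Slc25a3, Slc25a5, Slc25a4, Slc25a39 and Slc25a22, held 68.4% of the members' reads in EV cells and 73.8% in PPFP cells without pioglitazone. CPM is not corrected for transcript length, so these shares describe reads and not an order of transcript abundance.

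At the other end of the range, 5 members were too low to test in any comparison. Slc25a27, a neuronal relative of the uncoupling proteins, had no read in any of the 12 libraries, and Slc25a41, a short relative of the ATP-Mg/phosphate carriers, had 1 read in 1 library. Slc25a18, a glutamate carrier, Slc25a47, a carrier of liver, and Slc25a54 had at most 21 reads in any library. Where no filter on low counts was applied, Slc25a18 was higher in treated PPFP than treated EV cells (log2 fold change 1.74 ± 0.56 SE, adjusted p = 0.034), with at most 9 reads in a library.

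Without pioglitazone, 14 of the 31 members tested differed between PPFP and EV cells at an adjusted p under 0.05, in a comparison in which 45.2% of all genes tested did (22% higher and 23.1% lower). Unless another is named, p values come from edgeR's quasi-likelihood test on the 6 libraries of the groups compared, adjusted by Benjamini-Hochberg over all genes tested. In bulk RNA, fewer cells of a type and less RNA per cell cannot be told apart. None of the 14 changed by more than 2-fold, whereas 14.6% of all genes were called at that size. Log2 fold changes of the members ranged from -0.78 to 0.88, with a median of 0.05 against 0.00 over all genes, and 18 members had no overlap between the groups, which held for 56% of all genes.

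With pioglitazone in both lines, 14 of 32 members were called (all genes, 52.7%, with 26.3% higher and 26.4% lower). The split was 10 higher and 4 lower after TMM scaling and 7 higher and 8 lower after scaling by library size alone, which shifted the median of all genes from 0.01 to -0.12. Without pioglitazone the same scaling turned 8 higher and 6 lower into 7 higher and 8 lower. Of the members, 4 exceeded 2-fold with pioglitazone, Slc25a34, Slc25a25 and Slc25a10 upward and Slc25a23 downward (all genes, 19.7%), and 20 members had no overlap between the groups (all genes, 62.9%). Of the 31 members tested at both treatments, 10 were called in the same direction at both (all genes, 39.1%) and 0 in opposite directions (all genes, 0.059%). These comparisons share no library, but they share the cell lines and the experiments, so they are not independent.

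**Figure D1:**
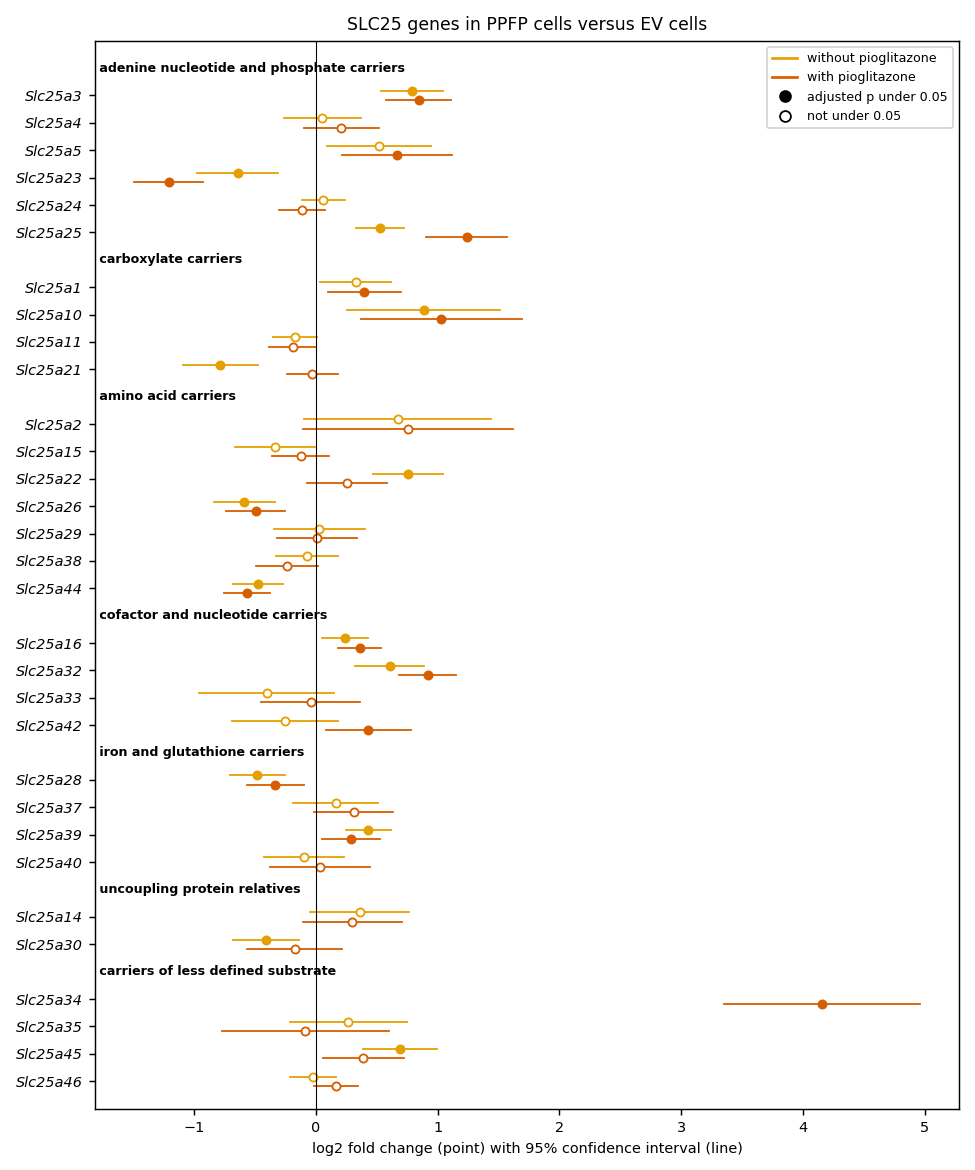
Log2 fold change of PPFP versus EV cells for the SLC25 genes tested and reported, without and with pioglitazone, grouped by the kind of substrate carried; bars are 95% intervals and filled points have an adjusted p under 0.05. Slc25a34, tested only with pioglitazone here, stands at 4.15, and the other members lie between -1.21 and 1.24.

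Among the adenine nucleotide and phosphate carriers, PPFP cells had more Slc25a3 and less Slc25a23 than did EV cells at both treatments, more Slc25a25 at both, and more Slc25a5 with pioglitazone. Slc25a3, which imports phosphate for ATP synthesis, was at 491, 479 and 589 CPM in EV libraries against 988, 812 and 848 CPM in PPFP libraries without pioglitazone. With pioglitazone it was at 466, 474 and 569 CPM in EV libraries against 997, 836 and 826 CPM in PPFP libraries. All 6 PPFP libraries were above all 6 EV libraries. The difference was 1.73-fold without pioglitazone (log2 fold change 0.79 ± 0.11 SE, adjusted p = 0.00091) and 1.8-fold with it (0.84 ± 0.11, adjusted p = 0.00074). Pioglitazone left Slc25a3 within a log2 interval (95%) of -0.22 to 0.24 in PPFP cells and of -0.33 to 0.23 in EV cells.

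Slc25a5, the ADP/ATP carrier of proliferating cells, was at 482, 428 and 709 CPM in EV libraries against 874, 679 and 728 CPM in PPFP libraries without pioglitazone. The third EV library lay above the second PPFP library, so the groups overlapped, and the difference had an adjusted p of 0.051 (log2 fold change 0.52 ± 0.18 SE). It was called by edgeR's exact test, by DESeq2, with the replicate block and without EV replicate 3. With pioglitazone it was at 449, 421 and 681 CPM in EV libraries against 925, 756 and 731 CPM in PPFP libraries. These did not overlap, and the difference was called (0.66 ± 0.19, adjusted p = 0.023), but the call was lost without replicate 1 or 2 of either group (adjusted p 0.052 to 0.083). Slc25a4, the ADP/ATP carrier of heart and muscle, had 581, 504 and 723 CPM in EV libraries against 689, 565 and 590 CPM in PPFP libraries without pioglitazone, and 563, 532 and 704 CPM against 772, 640 and 629 CPM with it. The groups overlapped at both treatments, with log2 fold changes of 0.05 (95% interval -0.26 to 0.37) and 0.21 (-0.10 to 0.52). RefSeq lists 9 pseudogenes of Slc25a5, 2 of Slc25a3 and 1 of Slc25a4, so reads of these genes may have been lost or shared.

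The calcium-regulated ATP-Mg/phosphate carriers, which load or unload the matrix with adenine nucleotides, went in different directions. Slc25a25 was at 59.3, 60.7 and 69.8 CPM in EV cells without pioglitazone and 61.9, 50.9 and 71.5 CPM with it. In PPFP cells it was at 86.1, 93.2 and 90.6 CPM without and 126, 152 and 148 CPM with pioglitazone. The 3 levels, EV, PPFP and PPFP with pioglitazone, did not overlap. Slc25a25 was 1.44-fold higher in PPFP than EV cells without pioglitazone (log2 fold change 0.53 ± 0.08 SE, adjusted p = 0.0017) and 2.36-fold higher with it (1.24 ± 0.14, adjusted p = 0.00034). Pioglitazone raised it 1.58-fold in PPFP cells (0.66 ± 0.09, adjusted p = 0.006).

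Slc25a23 had the reverse order. It was at 52.9, 45.6 and 41.9 CPM in EV cells without pioglitazone and 48.6, 45.9 and 41.5 CPM with it, but at 25.0, 30.8 and 32.9 CPM in PPFP cells without and 16.9, 19.7 and 21.1 CPM with pioglitazone. Again the 3 levels did not overlap. The log2 fold change of PPFP versus EV cells was -0.64 ± 0.14 SE without pioglitazone (adjusted p = 0.0085) and -1.21 ± 0.12 with it (adjusted p = 0.00017), which is 2.31-fold lower. Pioglitazone lowered it in PPFP cells by a log2 value of -0.62 ± 0.14 (adjusted p = 0.032, and 3.4e-09 with the replicate block, but lost in 5 of the 6 fits that left out a library, adjusted p 0.057 to 0.12). Slc25a24, the third of these carriers, stayed between 53.7 and 59.3 CPM on average in the 4 groups, with no call between the cell lines (log2 fold change 0.06, 95% interval -0.12 to 0.24, without and -0.11, -0.30 to 0.07, with pioglitazone). It overlaps Slc25a54 in the RefSeq annotation.

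Of the 4 carboxylate carriers, Slc25a10 was higher in PPFP cells at both treatments, Slc25a1 was higher with pioglitazone and Slc25a21 was lower without it, while Slc25a11, the oxoglutarate carrier of the malate-aspartate shuttle, was not called. Slc25a10, which exchanges malate or succinate for phosphate, was at 93.3, 64.3 and 150 CPM in EV libraries against 217, 169 and 170 CPM in PPFP libraries without pioglitazone. With pioglitazone it was at 91.1, 61.4 and 146 CPM in EV libraries against 220, 193 and 185 CPM in PPFP libraries. The EV libraries were spread more widely than the PPFP libraries but lay below all of them. The difference was 1.85-fold without pioglitazone (log2 fold change 0.88 ± 0.27 SE, adjusted p = 0.03) and 2.04-fold with it (1.03 ± 0.28, adjusted p = 0.018). The call was lost without replicate 1 of either group at both treatments, and without pioglitazone also without PPFP replicate 2 or 3 (adjusted p 0.053 to 0.099 over these fits).

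Slc25a1, which exports citrate for fatty acid synthesis, averaged 187 ± 32.3 CPM in EV libraries against 231 ± 9.93 CPM in PPFP libraries without pioglitazone. The log2 fold change was 0.33 ± 0.13 SE without pioglitazone (adjusted p = 0.067) and 0.40 ± 0.13 with it (adjusted p = 0.032), and the call was lost when any PPFP library was left out (adjusted p 0.058 to 0.10). It was also lost with scaling by library size alone.

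Slc25a21, which carries oxoadipate and related products of lysine and tryptophan breakdown, was at 67.5, 67.3 and 51.1 CPM in EV cells without pioglitazone and 62.2, 56.9 and 53.1 CPM with it. In PPFP cells it was at 37.0, 35.1 and 34.5 CPM without and 58.7, 53.1 and 54.0 CPM with pioglitazone. The PPFP libraries without pioglitazone were below all 9 others, and the PPFP libraries with pioglitazone lay among the EV libraries. PPFP versus EV cells gave a log2 fold change of -0.78 ± 0.13 SE without pioglitazone (adjusted p = 0.0023) and -0.03 with it (95% interval -0.24 to 0.18). Pioglitazone raised Slc25a21 1.56-fold in PPFP cells (0.64 ± 0.06, adjusted p = 0.0015). The comparison of the cell lines without pioglitazone and the pioglitazone response share the untreated PPFP libraries, so their opposite signs are not independent.

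Among 7 amino acid carriers tested, Slc25a22 was higher and Slc25a26 and Slc25a44 were lower in PPFP cells without pioglitazone, and the lower level of the latter pair was also called with pioglitazone. Slc25a22, a glutamate and proton carrier, was at 229, 196 and 254 CPM in EV cells without pioglitazone and 224, 196 and 257 CPM with it. In PPFP cells it was at 433, 359 and 340 CPM without and 315, 239 and 241 CPM with pioglitazone. Only the PPFP libraries without pioglitazone stood above the rest. The log2 fold change between the lines was 0.76 ± 0.12 SE without pioglitazone (adjusted p = 0.0019) and 0.26 with it (95% interval -0.07 to 0.59). Pioglitazone lowered Slc25a22 in PPFP cells by a log2 value of -0.51 ± 0.13 (adjusted p = 0.048, and 7.7e-12 with the replicate block, but lost in 5 of the 6 fits that left out a library, adjusted p 0.079 to 0.16, and with no filter on low counts), again with the untreated PPFP libraries in both comparisons.

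Slc25a26, which imports S-adenosylmethionine, the methyl donor of the matrix, was at 20.7, 20.1 and 18.7 CPM in EV libraries against 14.1, 12.7 and 12.3 CPM in PPFP libraries without pioglitazone. With pioglitazone it was at 19.2, 19.7 and 18.0 CPM in EV libraries against 14.4, 13.1 and 12.2 CPM in PPFP libraries. PPFP libraries were below all EV libraries, by log2 values of -0.59 ± 0.11 SE (adjusted p = 0.0036) and -0.49 ± 0.10 (adjusted p = 0.0059). Slc25a44, a carrier of branched-chain amino acids known from brown fat, averaged 75.3 ± 5.67 CPM in EV libraries against 53.4 ± 1.59 CPM in PPFP libraries without pioglitazone, and 78.0 ± 5.74 against 51.8 ± 1.87 CPM with it. Its log2 fold changes were -0.48 ± 0.09 SE (adjusted p = 0.0036) and -0.56 ± 0.08 (adjusted p = 0.00097). The ornithine carriers Slc25a2 and Slc25a15, the basic amino acid carrier Slc25a29 and the glycine carrier Slc25a38, which feeds heme synthesis, were not called between the lines, with log2 fold changes from -0.33 to 0.75 over both treatments. Slc25a2 had at most 36 reads in a library, and its interval of -0.09 to 1.44 without pioglitazone was wide.

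Among the cofactor and nucleotide carriers, Slc25a32 and Slc25a16 were higher in PPFP cells at both treatments. Slc25a32, which is linked to folate and FAD transport, was at 15.3, 15.7 and 15.7 CPM in EV cells without pioglitazone and 16.3, 15.4 and 17 CPM with it. In PPFP cells it was at 27.0, 20.3 and 22.8 CPM without and 32.8, 30.4 and 27.0 CPM with pioglitazone. The PPFP libraries were all above the EV libraries and met each other at 27.0 CPM. The log2 fold change was 0.61 ± 0.12 SE without (adjusted p = 0.0052) and 0.92 ± 0.10 with pioglitazone (adjusted p = 0.00027). Slc25a16, a candidate carrier of coenzyme A, differed by 0.24 ± 0.08 (adjusted p = 0.045) and 0.36 ± 0.08 (adjusted p = 0.0057). The first of these calls was lost in 4 of the 6 fits that left out a library (adjusted p 0.078 to 0.17). It was also lost with edgeR's exact test, library size alone, no filter on low counts and the replicate block.

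Slc25a42, which carries coenzyme A into the matrix, was at 21.4, 15.7 and 16.3 CPM in EV cells without pioglitazone and 21.4, 19.95 and 17.4 CPM with it. In PPFP cells it was at 11.7, 17 and 15.6 CPM without and 21.3, 27.8 and 28.6 CPM with pioglitazone. The treated PPFP libraries were above the untreated PPFP libraries, and the lowest of them was within the EV range. Pioglitazone raised it 1.76-fold in PPFP cells (log2 fold change 0.81 ± 0.18 SE, adjusted p = 0.031, and 1.8e-10 with the replicate block, but lost in 4 of the 6 fits that left out a library, adjusted p 0.058 to 0.12, and with scaling by library size alone). Against EV cells with pioglitazone the difference was 0.43 ± 0.15 (adjusted p = 0.043), a call that was lost in 5 of the 6 fits that left out a library (adjusted p 0.066 to 0.15). This call was also lost with the replicate block, library size alone, at least 10 counts in every library and a single fit of all 12 libraries. Without pioglitazone the difference was -0.25 (95% interval -0.68 to 0.19). Slc25a33, the pyrimidine nucleotide carrier, rose with pioglitazone in PPFP cells from 16.5 ± 1.5 to 22.7 ± 0.707 CPM (0.46 ± 0.08, adjusted p = 0.015). The call was lost in a single fit of all 12 libraries and in 4 of the 6 fits that left out a library (adjusted p 0.051 to 0.072). Between the lines it was not called, and its EV libraries were widely spread (22.2 ± 7.97 CPM without pioglitazone).

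Among the iron and glutathione carriers, Slc25a39 was higher and Slc25a28 lower in PPFP cells at both treatments. Slc25a39, which is required for glutathione import, averaged 365 ± 25.7 CPM in EV libraries against 484 ± 12.2 CPM in PPFP libraries without pioglitazone (log2 fold change 0.43 ± 0.08 SE, adjusted p = 0.0033). With pioglitazone the difference was 0.29 ± 0.10 (adjusted p = 0.048), lost in 4 of 6 fits without a library (adjusted p 0.091 to 0.20). RefSeq lists 8 pseudogenes of Slc25a39. Slc25a28, mitoferrin-2, which imports iron in most tissues, averaged 27.7 ± 2.61 against 19.5 ± 0.272 CPM without pioglitazone (-0.48 ± 0.10, adjusted p = 0.0051) and differed by -0.33 ± 0.10 with it (adjusted p = 0.027, lost in 4 of 6 fits without a library, adjusted p 0.052 to 0.094). The call with pioglitazone was also lost with edgeR's exact test and the replicate block. Slc25a37, mitoferrin-1, the iron carrier of erythroid cells, and Slc25a40, a paralogue of Slc25a39, were not called in any comparison.

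Both uncoupling protein relatives that were tested were at low levels. Slc25a30 was lower in PPFP than EV cells without pioglitazone, at 10.0 ± 0.936 against 13.5 ± 0.748 CPM (log2 fold change -0.41 ± 0.12 SE, adjusted p = 0.023), and the call was lost in 4 of 6 fits without a library (adjusted p 0.052 to 0.11). The call was also lost with edgeR's exact test and the replicate block. With pioglitazone the difference was -0.17 (95% interval -0.56 to 0.22). Slc25a14 was not called, with log2 fold changes of 0.36 and 0.30 between the lines.

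The carriers of less defined substrate held the largest change among the members named Slc25a. Slc25a34 had 2, 9 and 5 reads in EV cells without pioglitazone, 9, 7 and 3 with it, 5, 10 and 7 in PPFP cells without pioglitazone and 68, 107 and 118 in PPFP cells with it. In CPM these were 0.067, 0.301 and 0.171, then 0.243, 0.224 and 0.108, then 0.183, 0.370 and 0.296, and in treated PPFP cells 2.57, 3.99 and 3.91. The treated PPFP libraries stood far above the other 9, among which the groups overlapped. Pioglitazone raised Slc25a34 12.2-fold in PPFP cells (log2 fold change 3.61 ± 0.32 SE, adjusted p = 0.0013), and treated PPFP cells had 17.8-fold more than treated EV cells (4.15 ± 0.34, adjusted p = 7.7e-05). These comparisons share the treated PPFP libraries. Slc25a34 passed the filter on low counts only through that group, so its entry into both tests, and into the test of the difference of responses, depended on the high level, and it was not tested where at least 10 counts in every library were required. Between the untreated lines Slc25a34 was tested only where no filter was applied, and was not called (0.65 ± 0.58, adjusted p = 0.42).

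Slc25a45 was at 9.01, 7.66 and 8.67 CPM in EV cells without pioglitazone and 8.83, 7.19 and 9.12 CPM with it, and at 12.0, 14.5 and 13.8 CPM in PPFP cells without and 9.87, 11.2 and 11.2 CPM with pioglitazone. PPFP libraries were above EV libraries at both treatments, and the treated ones lay between. The log2 fold change was 0.69 ± 0.13 SE without pioglitazone (adjusted p = 0.0041) and 0.39 ± 0.14 with it (adjusted p = 0.052). Slc25a35 and Slc25a46, an outer membrane protein linked to mitochondrial shape, were not called between the lines.

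**Figure D2:**
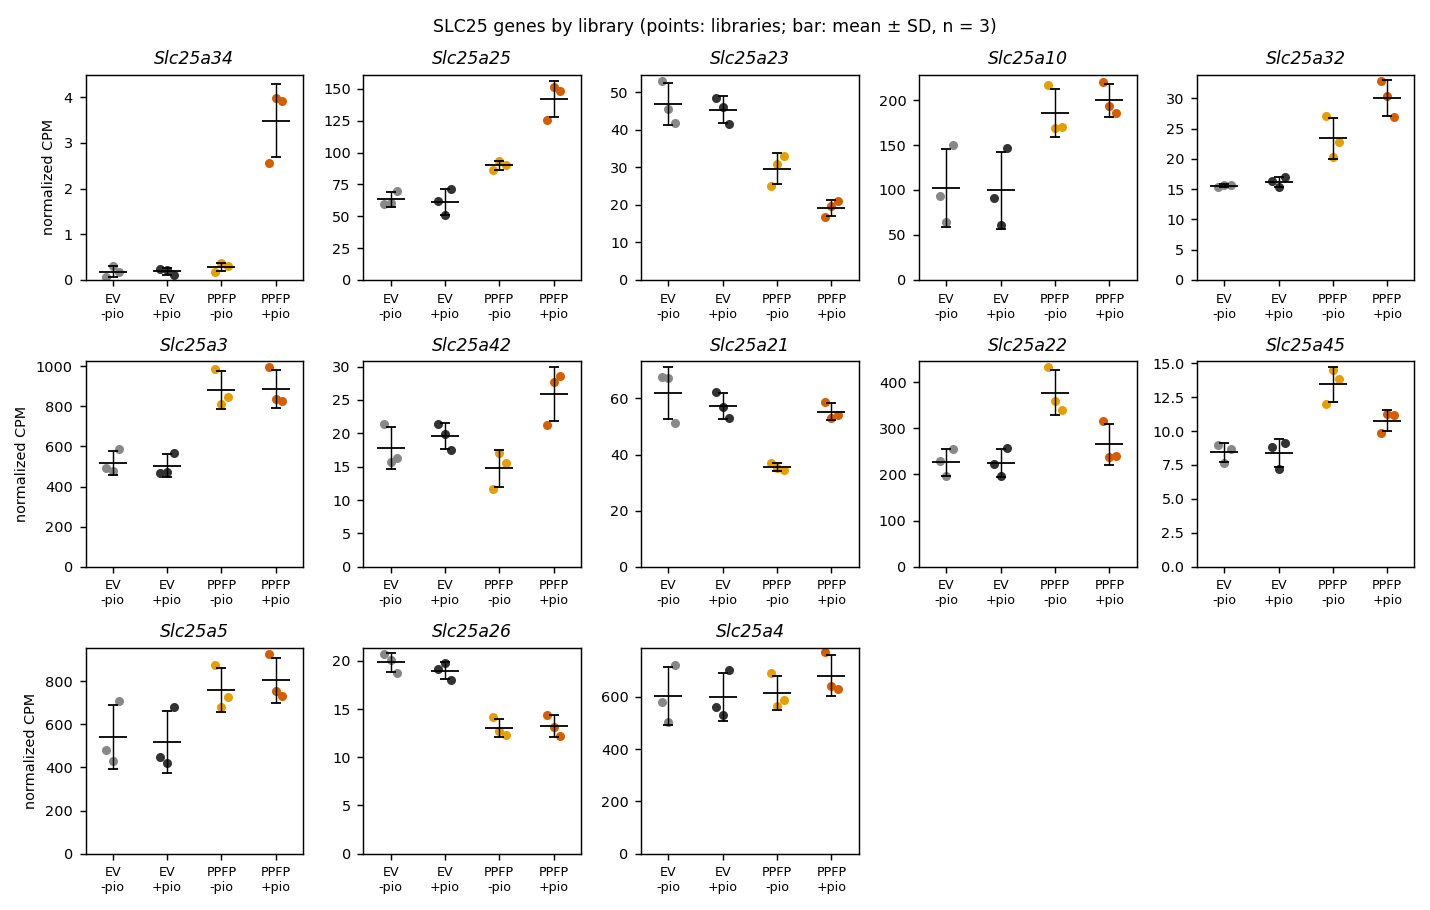
CPM of the 13 SLC25 genes described library by library, each on its own linear axis from 0, in EV and PPFP cells without and with pioglitazone; points are libraries and bars the group mean ± SD (n = 3). Slc25a34 stands between 2.57 and 3.99 CPM in treated PPFP cells only, and Slc25a21 is lowest in untreated PPFP cells.

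In PPFP cells with versus without pioglitazone, 7 of 32 members were called (all genes, 14.8%, with 7.63% higher and 7.13% lower). The 5 higher were Slc25a34, Slc25a42, Slc25a25, Slc25a21 and Slc25a33, and the 2 lower were Slc25a23 and Slc25a22. Only Slc25a34 exceeded 2-fold (all genes, 2.42%), and 14 members had no overlap between the groups (all genes, 34.1%). Slc25a34 entered this test only through the treated PPFP libraries, where it was high. Replicates of the same number deviated together within each cell line, and with the replicate number as a block 18 members were called, 11 higher and 7 lower, against 51.6% of all genes. The 11 added were Slc25a4, Slc25a10, Slc25a15, Slc25a16, Slc25a32 and Slc25a46 upward and Slc25a11, Slc25a35, Slc25a38, Slc25a39 and Slc25a45 downward, with log2 changes from -0.54 to 0.37. Slc25a34, Slc25a25 and Slc25a21 were called whichever library was left out, while Slc25a42, Slc25a33, Slc25a23 and Slc25a22 lost their call without replicate 2 or 3 of either PPFP group (adjusted p 0.051 to 0.16), which left 3 calls in each of these fits. Slc25a23 also lost it without treated replicate 1 and Slc25a22 without untreated replicate 1.

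In EV cells, 0 of 31 members were called with versus without pioglitazone (all genes, 0%), 0 had an unadjusted p under 0.05 (all genes, 0.158%), and DESeq2 and edgeR's exact test also called 0. Log2 fold changes ranged from -0.18 to 0.14, and the median standard error was 0.13. With the replicate block 0 members were called (all genes, 0.00986%). Of the 31 members, 1 had no overlap between the groups (all genes, 1.46%). Slc25a34, at 9 reads or fewer in every EV library, was not tested.

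**Figure D3:**
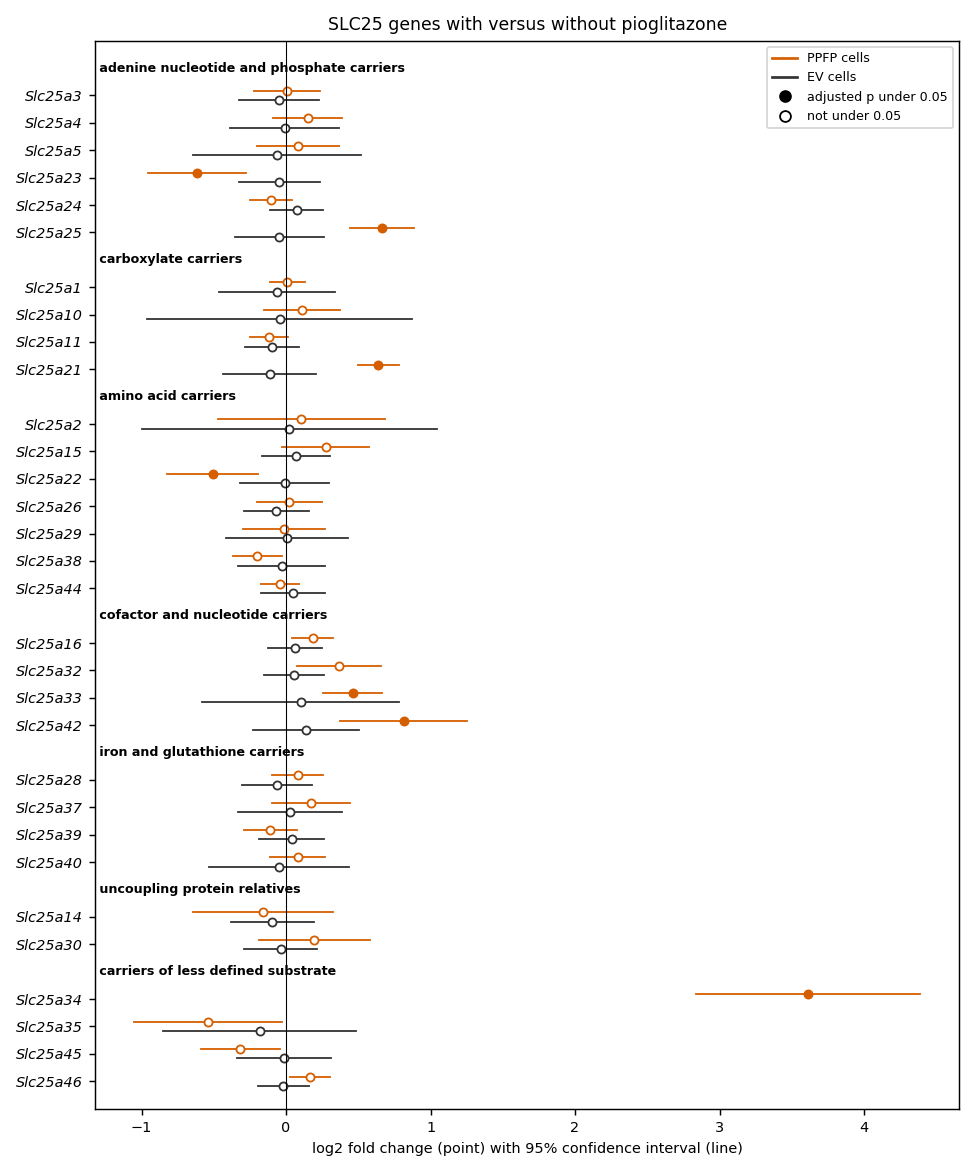
Log2 fold change with versus without pioglitazone for the SLC25 genes tested and reported, in EV cells and in PPFP cells; bars are 95% intervals and filled points have an adjusted p under 0.05. EV cells lie between -0.18 and 0.14 with no gene called, and PPFP cells between -0.62 and 3.61 with 7 called.

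The difference between the cell lines in their response to pioglitazone, the interaction term of a fit to all 12 libraries, was called for 3 of 32 members (all genes, 2.64%, with 1.38% higher and 1.26% lower). It was 3.48 ± 0.70 SE on the log2 scale for Slc25a34 (adjusted p = 0.024), 0.74 ± 0.17 for Slc25a21 (adjusted p = 0.039) and 0.69 ± 0.16 for Slc25a25 (adjusted p = 0.043), each a larger rise in PPFP cells. Slc25a34 entered this test only through the treated PPFP libraries. Slc25a34 lost the call in 5, Slc25a21 in 11 and Slc25a25 in 9 of the 12 fits that left out a library (adjusted p 0.057 to 0.13), with log2 values of 2.89 to 3.86, 0.67 to 0.88 and 0.58 to 0.80. Slc25a25 also lost the call with RLE factors, library size alone, no filter on low counts and at least 10 counts in every library. Slc25a21 also lost it with library size alone. With the replicate within each cell line as a block, 14 members were called (all genes, 34.3%), 9 of them with a higher and 5 with a lower response in PPFP cells. These included Slc25a42 (0.66, adjusted p = 0.00018), Slc25a22 (-0.51, adjusted p = 3e-06) and Slc25a23 (-0.58, adjusted p = 1.7e-05), whose adjusted p without the block was 0.25, 0.26 and 0.17. Slc25a34, Slc25a21 and Slc25a25 were also among the 14 (adjusted p = 0.00083, 4.6e-06 and 1.1e-05).

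Over the 2 comparisons of the cell lines and the pioglitazone response of PPFP cells, 19 of the 32 members tested were called at least once (59.4%) and 13 never, against 59.9% of all genes called at least once. Slc25a25 was higher and Slc25a23 lower in all 3. Slc25a21 and Slc25a22 were called between the untreated lines and for pioglitazone, in opposite directions. The counts of this paragraph come from fits without the replicate block. With it, Slc25a4, Slc25a11, Slc25a15, Slc25a35, Slc25a38 and Slc25a46 of the 13 were called for pioglitazone in PPFP cells (all genes, 51.6%).

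The other mitochondrial transporters, a list of 26 genes in the table with 25 tested, were called in 14 cases between the untreated lines (7 higher, 7 lower), 14 between the treated lines (8 higher, 6 lower) and 5 for pioglitazone in PPFP cells (2 higher, 3 lower). These are 56%, 56% and 20% of those tested, against 45.2%, 52.7% and 14.8% of all genes. None was called for pioglitazone in EV cells, where 23 were tested, or in the difference of responses (all genes called, 0% and 2.64%). The uncoupling proteins are SLC25 carriers under another name, and Ucp1 and Ucp3 had the largest log2 fold changes of this list in all 3 of these comparisons. Between the lines, and in the difference of responses, Ucp1 and Ucp3 passed the filter on low counts only through PPFP cells. Their entry into those tests therefore depended on the high level. Ucp1, the proton channel of brown fat, had at most 4 reads in any EV library, and 3044, 2033 and 1737 reads in PPFP libraries without and 11367, 8277 and 8833 with pioglitazone (86.7 ± 21.6 and 344 ± 74.9 CPM). Ucp3 had at most 1 read in an EV library and 50, 81 and 67 reads without and 152, 224 and 255 with pioglitazone in PPFP libraries. PPFP libraries were above EV libraries throughout, and pioglitazone raised Ucp1 (log2 fold change 1.99 ± 0.21 SE, adjusted p = 0.0023) and Ucp3 (1.56 ± 0.25, adjusted p = 0.0095) in PPFP cells.

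Ucp2 was higher in PPFP cells by log2 values of 0.91 without and 0.95 with pioglitazone, and was not called for pioglitazone in PPFP cells. Mtch1, an insertase of the outer membrane related to the SLC25 carriers, averaged 477 ± 25.6 CPM in EV libraries against 288 ± 7.76 CPM in PPFP libraries without pioglitazone and 214 ± 5.37 CPM in PPFP cells with it. It was lower in PPFP than EV cells by log2 values of -0.71 without (adjusted p = 0.00036) and -1.08 with pioglitazone (adjusted p = 6.7e-05). The sideroflexins, a separate family to which the serine carrier of mitochondria belongs, included Sfxn5, lower by log2 values of -0.91 without and -1.31 with pioglitazone, and Sfxn3, at -0.53 and -1.18. Sfxn1, the serine carrier, was higher by 0.37 at both treatments (adjusted p = 0.016 and 0.0075). Mpc2, a subunit of the pyruvate carrier, was 0.44 higher in PPFP than EV cells without and 0.78 higher with pioglitazone (adjusted p = 0.029 and 0.0015). Mpc1, of the same carrier, was not called between the lines (log2 fold changes 0.08 and 0.04).

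Reads could not be assigned with certainty where genes overlap, since the strand setting of the counting is not given in the sources used here. In the RefSeq annotation of GRCr8, 14 of the 37 members overlap a protein-coding gene, among them Slc25a25 with Naif1, Slc25a42 with Tmem161a, Slc25a21 with Pax9, Slc25a22 with Cend1 and Slc25a26 with Lrig1.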

How the data were processed

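Per the study's methods, RNA libraries (TruSeq RNA) were sequenced in paired ends, aligned by the authors to rn4 with TopHat2 and counted with HTSeq in the intersection-strict mode. The deposited table holds these raw counts per gene symbol, with no normalization or pooling. The deposited ChIP and input peak lists were not used here.

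Tests used edgeR 4.0.16 in R 4.3.3 (filterByExpr, TMM, quasi-likelihood test, Benjamini-Hochberg over all genes tested), each comparison on its own 6 libraries and the interaction on 12. A gene was called at an adjusted p under 0.05, whatever its fold. CPM used TMM factors over the 12 libraries. DESeq2 1.42.0 was an alternative, and Python 3.11.15 drew the figures and read the promoters. Counting depth was 23724703 to 35240176 per library, and the biological coefficient of variation was 0.126 to 0.156.

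Values in every library were given for members called with a fold above 1.5 in any test, at most 15, and the 3 with the highest mean CPM. Members, transport groups and lists were chosen with earlier results of these data known. The counts of members include 1 gene whose own result is not reported here.

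Deviations from the group mean of libraries with the same number correlated at 0.839, 0.612 and 0.568 between PPFP cells with and without pioglitazone and at 0.644, 0.825 and 0.870 in EV cells (PPFP libraries 2 and 3 also correlated across numbers, at 0.685 and 0.487). The number was therefore used as a block there as an alternative. Whether it marks an independent experiment is not stated in the sources used here.

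The other alternatives were edgeR's exact test, RLE factors, library size alone, no filter, at least 10 counts in every library, 1 fit of all libraries, and each library left out.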

Additional observations from a re-analysis of the deposited data

Results flagged for a closer look

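The response to pioglitazone differed between the cell lines, by the interaction term, for 3 of 32 members (all genes, 2.64%). The log2 difference of the responses, PPFP minus EV cells, was 3.48 for Slc25a34, where the EV libraries held 2 to 9 reads and the filter on low counts was passed only through treated PPFP cells, 0.74 for Slc25a21 and 0.69 for Slc25a25. The call was lost in 5, 11 and 9 of the 12 fits that left out a library. Slc25a25 also lost it with RLE factors, library size alone, no filter on low counts and at least 10 counts in every library. Slc25a21 also lost it with library size alone. With the replicate within each cell line as a block all 3 were called (adjusted p = 0.00083, 4.6e-06 and 1.1e-05), where 34.3% of all genes were.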

How the results depend on the processing

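The number of members called in PPFP versus EV cells without pioglitazone was 11 to 15 with a library left out, and in the same comparison with pioglitazone 9 to 13, the 9 without PPFP replicate 2. For pioglitazone in PPFP cells it was 3 to 9 with a library left out and 18 with the replicate block, against 7. In EV cells it was 0 under every alternative. For the difference of responses it was 0 to 2 with a library left out and 14 with the replicate block, against 3. It was 2 each with RLE factors or no filter on low counts, and 1 each with library size alone or at least 10 counts in every library. Slc25a25 was missing under each of the latter settings, Slc25a21 also with library size alone, and Slc25a34 with at least 10 counts, where it was not tested. Changes called with a fold above 1.5 kept their direction under the alternatives run, and smaller called changes kept theirs with a library left out. Under the other alternatives, smaller or uncalled changes of single genes were followed mainly by whether they were called. Between the cell lines the numbers did not pair the libraries (correlations -0.278, 0.408 and -0.397 without and -0.266, 0.320 and -0.469 with pioglitazone), and a block gave 13 and 11 calls. The cause of these shifts was not tested. Depth limits Slc25a34 in 9 of 12 libraries and the 5 members that were not tested. Replicates are 3 experiments on a single line of each kind, so the p values do not cover differences between independent transfections.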
